A study of Homo sapiens with 6 samples.

Results

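The fibroblast growth factor (FGF) axis described here comprised 10 genes: the ligands FGF2, FGF5 and FGF11, the binding protein FGFBP1, the receptors FGFR1, FGFR2, FGFR3 and FGFR4, and the feedback inhibitors SPRY2 and SPRY4. They were chosen by name, as ligands, receptors and regulators of one pathway, out of 19740 genes with a named probe on the array, and every probe whose RefSeq transcript belongs to one of them was taken. Earlier results of these data, among them the fall of FGF2, were known when the 10 genes were chosen. Gene expression was profiled on 6 one-colour Agilent arrays of CAL-27, an established human tongue squamous carcinoma line in which 3 samples carried shXBP-1s, an shRNA that targets XBP-1s, and 3 carried the control shRNA shCtrl. XBP-1s is the spliced, active form of the transcription factor XBP1, a product of the IRE1α branch of the unfolded protein response. The methods describe stable transduction, the labels name a transfection, and no other treatment, no clone and no separate culture is stated for either group, so the p-values measure only the spread between these samples. The comparison asks how transcript levels in the tumor cells changed when XBP-1s was reduced.

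FGF ligands are secreted proteins that are held by heparan sulfate and bind receptor tyrosine kinases of the FGFR family, which then recruit adaptors and activate the RAS-MAPK cascade. FGF11 belongs to a subgroup that stays inside the cell and does not activate the receptors in the usual way, and FGFBP1 is a secreted carrier that releases FGF2 from the extracellular matrix. Sprouty proteins are induced by the pathway and dampen it, and in squamous epithelium FGFR2 and FGFR3 are the receptors best known for roles in keratinocyte growth and differentiation.

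The targeted gene was examined first. Whether the XBP1 probe separates the spliced from the unspliced form is not stated in the sources used here. Its background-subtracted signal was 2534.2, 2743.1 and 2760.7 on shCtrl arrays 1 to 3 and 695.3, 617.1 and 550.8 on shXBP-1s arrays 1 to 3. It fell by 2.39 on the log2 scale (SE 0.04, 5.23-fold, limma with Benjamini-Hochberg adjusted p = 2.81e-07). Unless a signal is named, each value given below is a log2 level, with the 75th percentile of its own array set to 0. That percentile was 687.4 to 761.3 on the shCtrl arrays and 792 to 983.4 on the shXBP-1s arrays, between 82.08% and 84.81% of spots were well above background on each array, and no spot was saturated. In the file headers shCtrl replicates 2 and 3 shared 1 scan time, whereas shCtrl replicate 1 and the 3 shXBP-1s arrays shared another. Arrays with the same scan time are called a slide below, which is taken from that time alone.

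The array held 17 probes for the 10 genes, each printed as 1 spot, and 16 of them were tested. The remaining probe, the dimmest of 3 for FGF5, was not above background on any array. Calls required both an adjusted p under 0.05 and a difference of at least 2-fold, which 4.90% of all 27624 tested probes reached, 2.61% lower and 2.29% higher in shXBP-1s. Of the 16 FGF axis probes, 3 were called lower, both probes of FGF2 and 1 of FGFR3, and 1 was called higher, that of FGFBP1. At an adjusted p under 0.05 with no minimum fold, 6 were higher, 4 were lower and 6 did not pass, that is 62.5% against 41.7% of all tested probes, of which 18.4% were higher and 23.3% lower. The median difference of the 16 probes was 0.05 on the log2 scale, beside -0.02 for all tested probes. The called probes did not share a direction, since the ligand FGF2 and the receptor FGFR3 fell while the carrier FGFBP1 rose. In a bulk culture, a smaller number of cells of one kind and a lower RNA level per cell cannot be told apart.

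**Figure D1:**
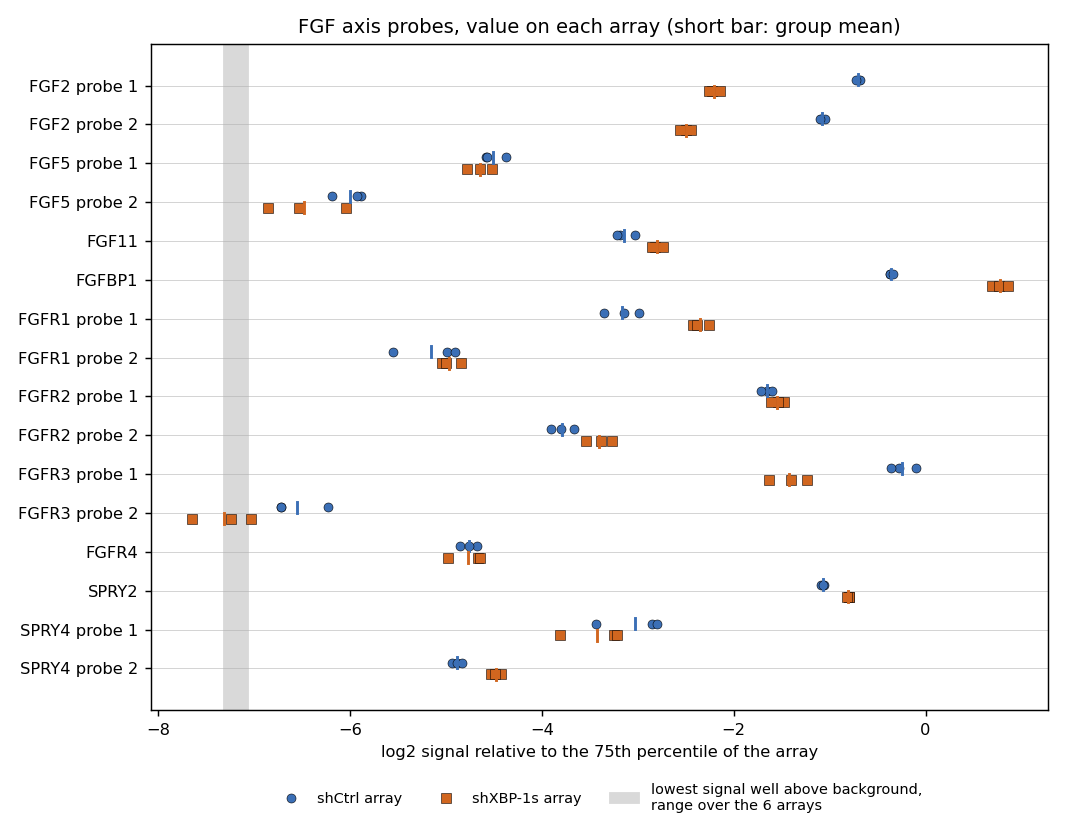
Values of the 16 tested FGF axis probes on each array, as log2 signal relative to the 75th percentile of the array, with circles for the 3 shCtrl arrays, squares for the 3 shXBP-1s arrays and a short bar for each group mean. The grey band spans the lowest signal that was well above background on each of the 6 arrays; the shXBP-1s values of FGFR3 probe 2 lie in it or beside it, and the groups are widely separated for FGF2, FGFBP1 and FGFR3 probe 1. Levels of different probes are not comparable with each other.

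The promoter stretches of the 3 genes with a called probe are shown because the targeted protein is a transcription factor whose known response elements hold the core letters ACGTG or CCACG. Each run lies directly upstream of the interval that RefSeq annotates for the gene, is written 5′ to 3′ on the strand of the gene and comes from the RefSeq promoter windows of GRCh38.p14, with any ACGTG or CCACG, on either strand, in capitals. FGF2 is at chr4:122826581-122826681 on the plus strand, FGFR3 at chr4:1793043-1793292 on the plus strand and FGFBP1 at chr4:15938741-15938990 on the minus strand. The FGF2 run has 101 bases against 250 for the others, because the annotated FGF2 interval begins upstream of the start used for its window.
FGF2: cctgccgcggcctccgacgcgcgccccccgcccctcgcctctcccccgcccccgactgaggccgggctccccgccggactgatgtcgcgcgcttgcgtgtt
FGFR3: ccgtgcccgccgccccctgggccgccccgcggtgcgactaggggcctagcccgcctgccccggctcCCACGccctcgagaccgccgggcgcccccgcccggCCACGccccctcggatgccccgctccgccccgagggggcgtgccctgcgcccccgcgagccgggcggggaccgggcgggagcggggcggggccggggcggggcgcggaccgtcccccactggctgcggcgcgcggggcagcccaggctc
FGFBP1: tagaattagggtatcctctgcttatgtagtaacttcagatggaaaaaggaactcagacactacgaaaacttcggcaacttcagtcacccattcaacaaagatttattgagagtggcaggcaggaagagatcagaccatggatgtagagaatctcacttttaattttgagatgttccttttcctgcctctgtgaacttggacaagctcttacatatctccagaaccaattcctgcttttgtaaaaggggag
The stretches differed in base composition, with a GC content of 80.2% for FGF2 and 86.8% for FGFR3 but 40.8% for FGFBP1. CCACG occurred at 2 positions upstream of FGFR3, and neither motif occurred in the window of FGF2 or FGFBP1. Full windows of 300 bases, 250 before and 50 after each annotated start, were then taken. Those on the chromosome of FGFR1 were left out for the FGF axis genes but not for the share of all windows. The other 9 of the 10 genes had 19 windows. ACGTG was found in 5 of these windows, from FGF11, FGFR2 and FGFR4, and in 21.4% of all 35116 windows. CCACG was found in 7, from FGF5, FGF11, FGFR3, FGFR4 and SPRY4, and in 38.1% of all windows, where the 2 motifs overlap whenever CCACGTG is present. FGF2, FGFBP1 and SPRY2 had neither motif. These matches are letters in a window and are not measured binding sites.

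FGF2, the basic FGF that acts on several FGFR forms and is kept in the matrix by heparan sulfate, was the one of the 3 ligands with a called change. The signal of its brighter probe was 425.7, 472.5 and 456.2 on shCtrl arrays 1 to 3 and 210.1, 203.1 and 166 on shXBP-1s arrays 1 to 3. Every shXBP-1s array lay below every shCtrl array, and both groups were tight. The level went from -0.70 ± 0.02 to -2.21 ± 0.06 (SD, n = 3 each), a fall of 1.504 on the log2 scale (SE 0.05, 2.84-fold, 95% confidence interval 2.60 to 3.09, limma with Benjamini-Hochberg adjusted p = 1.67e-06). The second FGF2 probe, of the same transcript NM_002006, gave signals of 322.1, 368.7 and 353 in shCtrl against 174.4, 164.5 and 134.8 in shXBP-1s. It also showed no overlap and fell by 1.42 (SE 0.06, 2.67-fold, limma adjusted p = 2.2e-06). With the slide as a block, where the shXBP-1s arrays are set against shCtrl replicate 1 alone, the differences of both probes were -1.52 and -1.40.

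FGF2 overlaps NUDT6, a gene transcribed from the opposite strand, in the RefSeq annotation. The labelling protocol in the labels copies double-stranded cDNA with random primers, but that text may not describe these arrays in full. Whether the signal keeps the strand is therefore not known, nor whether the FGF2 probes lie where the 2 genes overlap. The NUDT6 probe gave signals of 321.5, 433.2 and 390.9 in shCtrl and 329.7, 288.7 and 282.1 in shXBP-1s. It fell by 0.61 (SE 0.08, limma adjusted p = 0.000509), a smaller value than either FGF2 probe, and the difference between the genes was not tested.

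FGF5, a ligand best known for ending the growth phase of the hair follicle, did not pass the test with either measured probe. Its brighter probe read -4.37, -4.58 and -4.57 in shCtrl and -4.78, -4.65 and -4.52 in shXBP-1s, so that the groups overlapped, with a difference of -0.14 (95% confidence interval -0.41 to 0.12, limma adjusted p = 0.368). The dimmer probe read -6.19, -5.88 and -5.93 against -6.04, -6.53 and -6.85, with a difference of -0.48 (-1.02 to 0.07, limma adjusted p = 0.145). Here shXBP-1s replicate 1 lay among the controls, and without it the difference was -0.69 with an adjusted p of 0.0467 from limma. The interval of this probe includes a fall of 2-fold as well as no change.

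FGF11, the intracellular member, rose slightly. It read -3.03, -3.18 and -3.22 in shCtrl and -2.82, -2.86 and -2.74 in shXBP-1s. All 3 shXBP-1s values were above the controls, by 0.34 on average (SE 0.08, 1.27-fold, limma adjusted p = 0.00821). The rise did not pass with the slide as a block (0.23, limma adjusted p = 0.1) and under normexp background correction it was -0.29, which is 0.13 above the median of all probes, since that setting moved the median to -0.41.

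FGFBP1, the secreted carrier of FGF2, changed in the direction opposite to its ligand. Its signal was 531.8, 590.1 and 595.8 on shCtrl arrays 1 to 3 and 1594.6, 1525.3 and 1433.7 on shXBP-1s arrays 1 to 3. The groups were far apart and neither held a stray array. The level rose from -0.36 ± 0.02 to 0.77 ± 0.08 (SD, n = 3 each), by 1.13 (SE 0.05, 2.20-fold, 95% confidence interval 2.02 to 2.39, limma with Benjamini-Hochberg adjusted p = 3.78e-06). With the slide as a block the difference was 1.14. Within each array, where the scaling cancels, the log2 ratio of FGFBP1 to FGF2 signal was 0.32, 0.32 and 0.39 in shCtrl and 2.92, 2.91 and 3.11 in shXBP-1s, a shift of 2.64. This ratio was chosen after its values were seen, and the exact 2-sided permutation test gave p = 0.1, the smallest that 3 arrays against 3 allow.

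**Figure D2:**
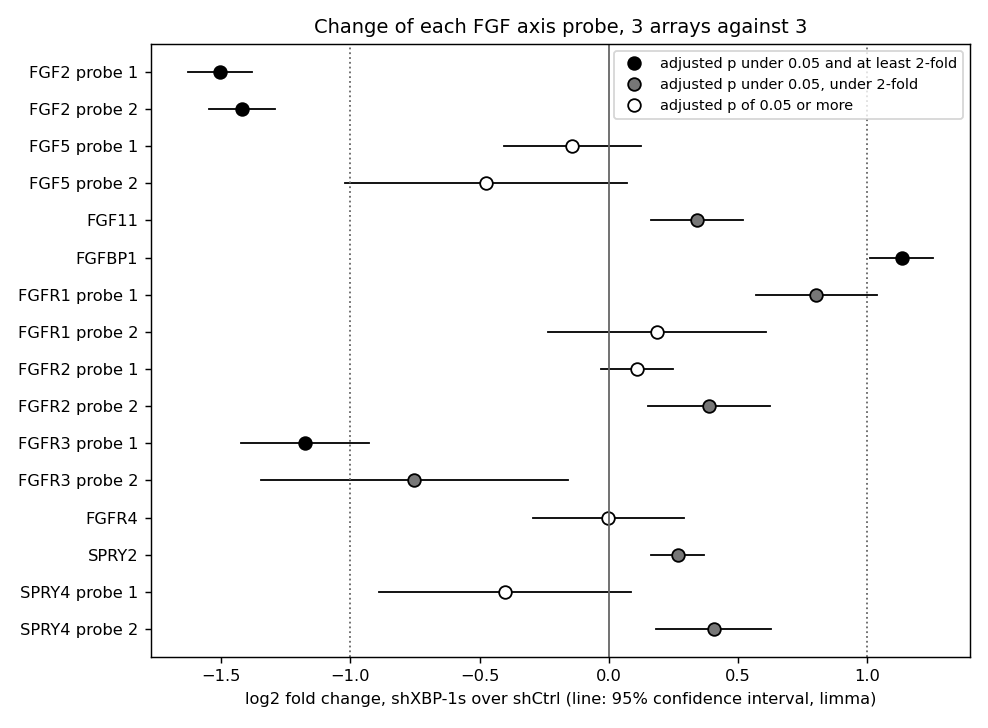
Difference between shXBP-1s and shCtrl for each tested FGF axis probe, as a log2 fold change with its 95% confidence interval from limma, with fill marking the adjusted p and the fold and dotted lines at 2-fold. FGF2 (-1.504 and -1.42) and FGFR3 probe 1 (-1.18) lie left of the lower line and FGFBP1 (1.13) right of the upper one, whereas FGFR1 probe 1 (0.80) passed the test within the lines.

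The 4 receptor tyrosine kinases were not changed alike. FGFR3, whose activating mutations are known from skeletal dysplasias and from benign skin and bladder lesions, was the receptor with a called change. Its brighter probe gave signals of 640.5, 628.2 and 588.4 in shCtrl and 416.3, 338.9 and 256.2 in shXBP-1s. All shXBP-1s arrays were lower, with a wider spread than for FGF2. The level fell from -0.25 ± 0.13 to -1.42 ± 0.19 (SD, n = 3 each), by 1.18 (SE 0.11, 2.26-fold, 95% confidence interval 1.90 to 2.68, limma with Benjamini-Hochberg adjusted p = 7.6e-05), and by 1.32 with the slide as a block. The second FGFR3 probe was well above background in shCtrl but on no shXBP-1s array, and it entered the test through shCtrl only. It read -6.72, -6.23 and -6.71 against -7.04, -7.24 and -7.65. With shXBP-1s values under the lowest signal well above background on their array raised to it, shCtrl was 1.48-fold higher. The fold without that step had a 95% confidence interval of 1.12 to 2.55, with a limma adjusted p of 0.0475. That call was lost without any 1 of 5 arrays, shCtrl replicate 1 being the exception, with an adjusted p up to 0.148, and with the slide as a block (-0.59, limma adjusted p = 0.262), so this probe is no independent support for the fall on the brighter one.

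FGFR1, the receptor most often linked to mesenchymal cells, rose on its brighter probe. The signal of that probe was 67.3, 96.1 and 85.8 in shCtrl and 183.1, 171.8 and 165.4 in shXBP-1s. The lowest shXBP-1s array was well above the highest shCtrl array, and the level rose by 0.80 (SE 0.10, 1.75-fold, 95% confidence interval 1.48 to 2.06, limma adjusted p = 0.000435), short of the 2-fold line. The slide block gave 1.00, and normexp gave 0.13, or 0.54 above the median of all probes, with an adjusted p of 0.754 from limma. The dimmer FGFR1 probe, designed on another transcript, read -5.55, -4.99 and -4.91 against -4.85, -5.04 and -5.00. The groups overlapped, the difference was 0.19 (-0.24 to 0.61, limma adjusted p = 0.452), and it became -0.01 without shCtrl replicate 1 and 0.59 (limma adjusted p = 0.0242) with the slide as a block. The 2 FGFR1 probes differed in response by 0.62, with no overlap between groups in the within-array difference (exact permutation p = 0.1).

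FGFR2, the receptor of epithelial cells for FGF7 and FGF10, moved little. The brighter probe read -1.65, -1.71 and -1.60 in shCtrl and -1.48, -1.54 and -1.61 in shXBP-1s, a difference of 0.11 (95% confidence interval -0.03 to 0.25, limma adjusted p = 0.186). These groups overlapped, and the interval excludes a change of 2-fold in either direction. The dimmer probe read -3.66, -3.91 and -3.80 against -3.27, -3.38 and -3.54 and rose by 0.39 (SE 0.10, limma adjusted p = 0.0172). It did not pass with the slide as a block (0.26, limma adjusted p = 0.179) or when shCtrl replicate 2 or 3 or shXBP-1s replicate 1 or 2 was left out, where the adjusted p lay between 0.0513 and 0.0619.

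FGFR4, best known as the liver receptor for FGF19, read -4.86, -4.68 and -4.76 in shCtrl and -4.67, -4.65 and -4.98 in shXBP-1s. The shCtrl values lay within the range of the shXBP-1s values, and the difference was -0.0021 (95% confidence interval -0.29 to 0.29, limma adjusted p = 0.991). Between receptors on the same array, the log2 ratio of FGFR1 to FGFR3 signal went from -2.91 ± 0.30 to -0.93 ± 0.28 and that of FGFR2 to FGFR3 from -1.41 ± 0.16 to -0.12 ± 0.13 (SD, n = 3 each). No array of one group reached the other in either ratio, which were chosen after their values were seen (exact permutation p = 0.1 for each).

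The Sprouty inhibitors block signaling between the receptor and the MAPK cascade. SPRY2 read -1.06, -1.09 and -1.07 in shCtrl and -0.80, -0.80 and -0.81 in shXBP-1s. The spread within groups was small, the groups were apart, and SPRY2 rose by 0.27 (SE 0.04, 1.20-fold, limma adjusted p = 0.00188), although under normexp the difference was 0.13 (0.55 above the median of all probes in that setting) with an adjusted p of 0.452 from limma. The 2 SPRY4 probes disagreed. The brighter read -3.43, -2.85 and -2.80 against -3.25, -3.21 and -3.81, a difference of -0.40 (-0.89 to 0.09, limma adjusted p = 0.168), and shCtrl replicate 1 was lower than the other shCtrl arrays. Without that array the difference was -0.60 (limma adjusted p = 0.026), and with the slide as a block it was 0.0049. The dimmer SPRY4 probe read -4.94, -4.89 and -4.83 against -4.53, -4.42 and -4.49 and rose by 0.41 (SE 0.10, limma adjusted p = 0.0105), with an adjusted p of 0.058 without shXBP-1s replicate 2 and a difference of -0.61 under normexp, or -0.19 relative to the median of all probes. The within-array difference of the 2 SPRY4 probes shifted by -0.81 (exact permutation p = 0.1), so no direction is given for this gene.

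Among all 16 probes, 10 had groups that did not overlap, beside 52.4% of all tested probes. Of the 6 genes with more than 1 tested probe, FGF2 had both probes well above background on all arrays and changed in the same direction at an adjusted p under 0.05. The values of FGF2, FGFBP1 and FGFR3 probe 1 kept their direction and a p under 0.05 in each of 17 alternative settings, adjusted in each except the methods' t-test without adjustment, with ranges of -1.54 to -1.18, 1.09 to 1.18 and -1.32 to -0.92.

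**Figure D3:**
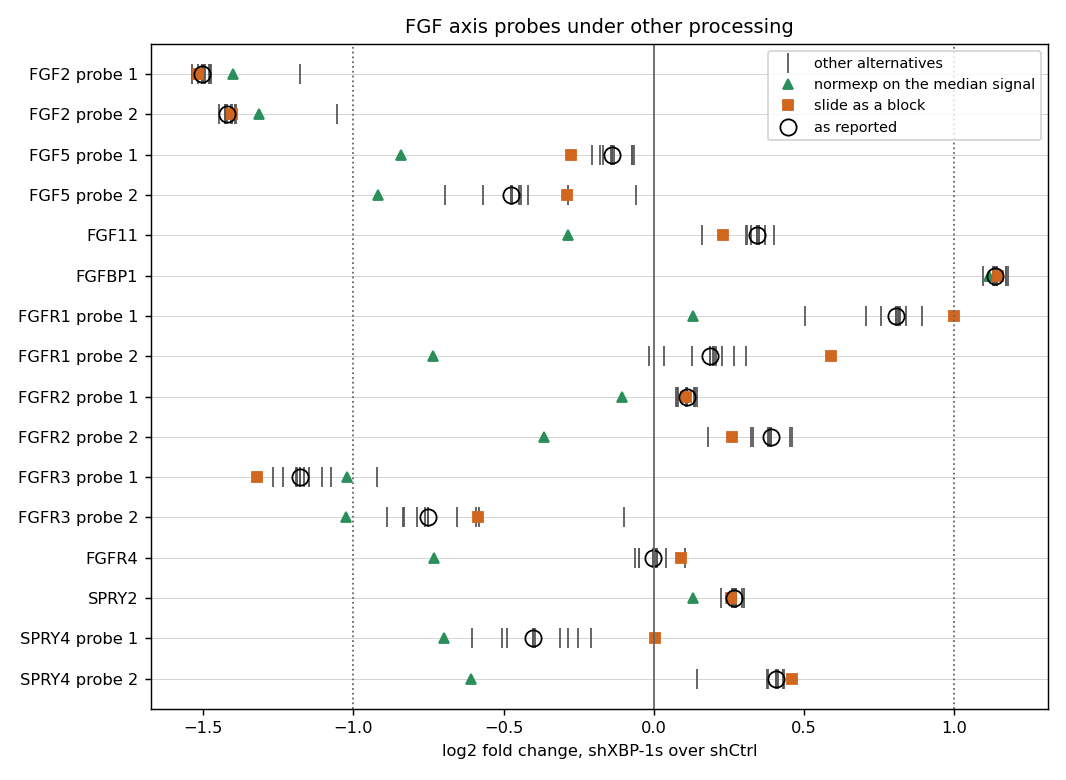
Log2 fold change of each tested FGF axis probe as reported (open circle) and under the alternative settings, with normexp background correction as triangles, the slide as a block as squares and the others as vertical ticks. FGF2, FGFBP1 and FGFR3 probe 1 stay on one side of 0 throughout, whereas normexp moved FGF11 (-0.29), FGFR1 probe 2 (-0.74), both FGFR2 probes (-0.10 and -0.37) and SPRY4 probe 2 (-0.61) below 0 while it moved the median of all probes to -0.41.

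The rest of the pathway was taken from lists of 109 further genes, of which 97 were tested, each by its brightest probe. At an adjusted p under 0.05, 28 were higher, 24 were lower and 45 did not pass, that is 53.6% beside 46.4% of all 16821 tested genes, of which 3184 were higher and 4619 lower. The median difference was -0.01 for these genes and -0.04 for all tested genes. The genes counted lower include FGF1, FGF12 and FGF20, which entered the test through shCtrl only. Those counted higher include FLRT2, which entered through shXBP-1s only. The pathway as a whole was thus split between both directions.

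Of the other FGF ligands, 15 of 19 were tested, 4 were lower, 1 was higher and 10 did not pass, but 3 of the 4 that were lower entered the test through shCtrl only, which by itself selects for a fall. The intracellular FGF13 rose by 0.77 (limma adjusted p = 0.000362). Under normexp it was at -0.02, that is 0.39 above the median of all probes. The 3 ligands past 2-fold were all near background. The FGF12 probe gave signals of 7, 8.5 and 11.9 in shCtrl and 1.7, 2.9 and 5.6 in shXBP-1s, where no array was well above background. With those arrays raised to their lowest signal well above background, shCtrl was 1.70-fold higher, a fold that was not tested. The limma adjusted p of 0.0187 belongs to the values before that step, for which the filter selects a fall. The FGF20 probe likewise gave 1.35-fold with the dim arrays raised, and its limma adjusted p of 0.0124 is also from the values before that step. The third of them, FGF1, a ligand of all FGF receptors, was well above background on 1 of 3 shXBP-1s arrays, with signals of 5.6, 9.2 and 10.1 in shCtrl and 2.6, 6.7 and 1.4 in shXBP-1s (limma adjusted p = 0.0289). The fall of FGF3 (-0.38, limma adjusted p = 0.0311) did not pass with the slide as a block, nor did those of FGF1 and FGF12. FGF7, the stromal ligand of epithelial FGFR2, differed by 0.11 and did not pass.

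**Figure D4:**
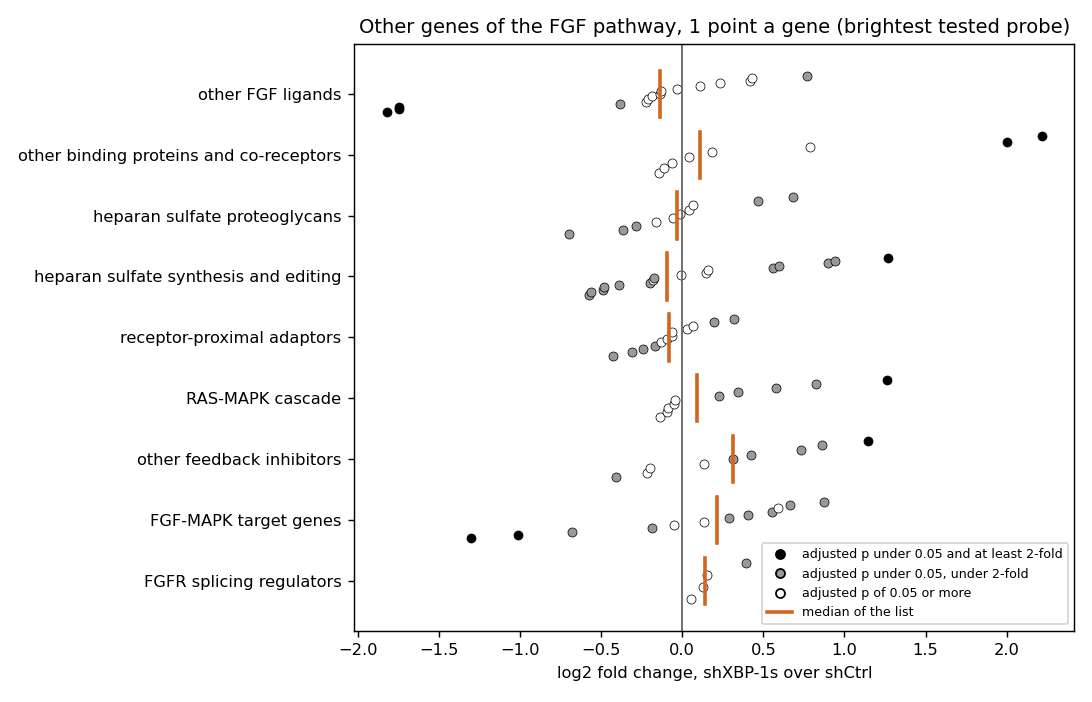
Log2 fold change between shXBP-1s and shCtrl of each tested gene of the FGF pathway lists outside the 10 genes, 1 point a gene by its brightest probe, with fill marking the adjusted p and the fold and a bar at the median of each list. Points lie on both sides of 0 in every list shown except the splicing regulators, and the feedback inhibitors (median 0.31) and MAPK target genes (median 0.21) have the highest medians.

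Of the binding proteins and co-receptors, 8 of 9 were tested and 2 were higher, both FLRT proteins, which are membrane proteins known to bind FGF receptors. FLRT3 gave signals of 60.4, 55.8 and 53 in shCtrl and 269.9, 273.2 and 273.3 in shXBP-1s, a rise of 2.00 (SE 0.11, 4.00-fold, limma adjusted p = 7.69e-06). FLRT2 was well above background in shXBP-1s only and entered the test through that group, which alone selects for a rise. With the shCtrl arrays raised to their lowest signal well above background, FLRT2 was 2.18-fold higher in shXBP-1s, a fold that was not tested. Its limma adjusted p of 0.00295 belongs to the values before that step, for which the filter selects a rise. The difference turned to -0.72 under normexp. The Klotho co-receptors KL and KLB did not pass.

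Heparan sulfate holds FGF2 at the cell surface. Of 10 tested proteoglycans that carry it, 2 were higher, 3 lower and 5 did not pass. SDC1, the main syndecan of epithelia, rose by 0.68 (limma adjusted p = 4.33e-05), while HSPG2, the matrix proteoglycan perlecan, fell by 0.70 (limma adjusted p = 1.8e-05) and GPC4 fell by 0.37. All 4 HSPG2 probes were lower, at -0.70 to -0.39. Of 16 tested enzymes of heparan sulfate synthesis and editing, 5 were higher, 7 lower and 4 did not pass. HPSE, the heparanase that cuts the chains and releases bound ligands, rose from signals of 289, 298.9 and 302 to 985.3, 844.8 and 769.2, by 1.27 (SE 0.05, 2.41-fold, limma adjusted p = 2.47e-06). SULF2, which removes 6-O-sulfates at the cell surface, rose by 0.90 (limma adjusted p = 6.51e-06), HS3ST1 by 0.94 and the chain polymerase EXT2 by 0.60, while GLCE, the epimerase, fell by 0.56.

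Downstream of the receptors, all 12 adaptors were tested, and 2 were higher, 4 lower and 6 did not pass, none past 2-fold. GRB2, which links receptors to SOS proteins, fell by 0.42 (limma adjusted p = 0.0067). It did not pass under normexp (-0.52, or -0.11 relative to the median of all probes, limma adjusted p = 0.117). By the methods' t-test its Benjamini-Hochberg adjusted p was 0.0512. Of 10 tested genes of the RAS-MAPK cascade, 5 rose, 5 did not pass and 0 fell in limma, with 0 lower at an unadjusted p under 0.05 by limma or the methods' t-test. BRAF rose by 0.83 (limma adjusted p = 1.73e-05), although it did not pass under normexp (0.42, or 0.83 above the median of all probes), and NRAS rose by 0.58 and 0.84 on its 2 probes. The rise of HRAS, another of the 5, did not pass in 10 of 17 alternatives.

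Of 9 tested feedback inhibitors besides SPRY2 and SPRY4, 5 rose, 1 fell and 3 did not pass. DUSP6, the phosphatase of ERK whose transcription is a common readout of FGF signaling, gave signals of 1654.5, 1874.6 and 1857.7 in shCtrl and 5055.1, 4936.8 and 4402.7 in shXBP-1s. The groups did not overlap and DUSP6 rose by 1.15 (SE 0.05, 2.21-fold, limma adjusted p = 2.62e-06). DUSP4 rose by 0.86, RASA1 by 0.42 and SPRED1 by 0.31, whereas SPRY1, another Sprouty gene, fell by 0.41 (limma adjusted p = 0.000919). The inhibitors therefore moved apart from each other, and within arrays the log2 ratio of DUSP6 to FGF2 signal went from 1.99 ± 0.03 to 4.64 ± 0.08 and that of SPRY2 to FGF2 from -0.37 ± 0.03 to 1.40 ± 0.06 (SD, n = 3 each), both chosen after their values were seen (exact permutation p = 0.1 for each).

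Genes known as targets of FGF and MAPK signaling were also split, with 5 higher, 4 lower and 3 not passing among 12. CCND1, the G1 cyclin D1, fell by 1.30 (SE 0.08, 2.46-fold, limma adjusted p = 1.04e-05) and FOS by 0.68, while MYC rose by 0.66 and PLAUR, the urokinase receptor, by 0.87. ETV1, an ETS factor induced by FGF, fell by 1.01 on its brightest probe and by 1.15 on another, but its second brightest probe differed by 0.18 and did not pass. Of the 4 regulators of FGFR splicing, ESRP1, which favours the epithelial receptor forms, rose by 0.39 (limma adjusted p = 0.00844) but did not pass with the slide as a block (0.30, limma adjusted p = 0.101), and the other 3 did not pass. The sources used here do not state whether the probes separate receptor splice forms.

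The genes whose profile over the 6 arrays lay closest to that of FGF2, by Euclidean distance after centring, were ANAPC16 (0.08), MRPL16 (0.08), BCAM (0.10), TNFAIP2 (0.11) and CST6 (0.13). Each fell by 1.51 to 1.56 with groups that did not overlap, so likeness here means a fall of the same size.

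The labelled cell type was checked against markers. All 10 squamous epithelial markers were well above background in both groups, and 7 were higher in shXBP-1s and 3 did not pass. KRT5, KRT14 and KRT6A, keratins of basal and activated squamous cells, rose by 1.43, 1.58 and 4.28, and EPCAM and CDH1 differed by 0.01 and 0.13. The summed signal of this list, relative to the 75th percentile, was 102 to 109 in shCtrl and 140 to 165 in shXBP-1s, so it moved with the rise of FGFBP1 and the fall of FGF2 and FGFR3. The largest part of this sum in both groups was SFN, whose mean log2 level rose by 0.71, from 5.50 to 6.21, and not the keratins named above. Of 8 fibroblast markers, COL3A1 and THY1 were not above background, LUM, FAP and DCN rose by 1.94, 1.76 and 1.43, PDGFRB and COL1A1 fell by 1.28 and 0.63, and COL1A2 did not pass. PDGFRB made up most of the summed level in shCtrl, and the sum went from 0.977 to 1.07 in shCtrl to 0.710 to 0.725 in shXBP-1s. Of 5 tested endothelial markers, 0 passed in limma and 0 had an unadjusted p under 0.05 in either direction (summed level 0.227 to 0.294 against 0.270 to 0.289). Of 5 tested leukocyte markers, 1 rose and 2 fell, among them CD68, which rose by 0.65, and CD14, which fell by 0.84, with a summed level, most of it CD14, of 4.60 to 6.47 against 3.39 to 3.63. The part of these lists in the FGF axis results was not tested.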

How the data were processed

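Total RNA of CAL-27 cells with shCtrl (n = 3) or shXBP-1s (n = 3) was hybridised to Agilent whole human genome arrays. Per the file headers, the authors' scanner output came from Agilent Feature Extraction 11.0.1.1, and the intensity used was its background-subtracted and detrended signal. The authors also deposited a table of log2 values, for which the labels name RMA, and it was used as an alternative only. The labels describe NimbleGen ds-cDNA labelling while the arrays are Agilent, so the labelling text may not describe these arrays in full.

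Spots flagged as outliers were left out, log2 signals were taken relative to the 75th percentile of each array over non-control spots, and spots of a probe were averaged. From 34127 probes, 19 were dropped because flags removed all their spots on an array. The 27624 probes well above background, in more than 50% of spots, on all 3 arrays of a group were tested with limma 3.58.1 (lmFit, eBayes with trend, R 4.3.3), 2-sided, with Benjamini-Hochberg adjustment over all of them. The test was checked on simulated data. Where a group was not above background on any array, the fold given is the mean of the bright group against the dim group. Each dim value under the lowest signal well above background on its array was first raised to it. That lowest signal is taken over all probes, and the fold is not a confidence limit and was not tested. Symbols came from matching probe accessions to RefSeq, and 25771 probes matched. The array was designed on another genome build, so no probe coordinates are given.

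The 10 genes, the pathway lists (written from general knowledge), the tests and the alternatives were chosen with earlier results of these data known. Named were all FGF axis genes, XBP1, NUDT6, genes called in each list (up to 6) with up to 4 further genes by smallest p, and the 5 genes nearest to FGF2. FGF7, KL and KLB were named after their values were seen, and some genes of the lists are not reported here by name. Groups and replicate numbers came from the sample labels. Alternatives covered background correction, normalization, filters, variance model, test, threshold, slide, pairing and leaving out each array. With 3 arrays a group, their number limits the precision, and no exact permutation p can fall below 0.1.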

Additional observations from a re-analysis of the deposited data

How the results depend on the processing

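The fall of FGF2 passed the test in all 17 alternatives (-1.54 to -1.18), as did those of its second probe and FGFR3 probe 1 and the rise of FGFBP1. Leaving out each array in turn left 3 FGF axis probes called lower (3 to 3) and 1 higher (1 to 1), with 1275 to 1750 probes called over the array, 17 to 26 pathway genes lower and 25 to 31 higher. Of all tested probes, 1354 were called, against 473 with normexp, 363 with normexp and quantile normalization, 4129 at 1.5-fold, 11516 with no minimum fold, and 1291 by the methods' t-test, or 1214 after Benjamini-Hochberg adjustment. Normexp moved the median of all probes to -0.41 and the share of calls that were higher from 46.7% to 33.6%. Relative to that median, FGF2 was at -0.99, FGFBP1 at 1.53, FGFR3 probe 1 at -0.61, FGFR1 probe 1 at 0.54 and SPRY2 at 0.55. With normexp and quantile normalization FGFR3 probe 1 (-0.92) was under 2-fold. FGF axis probes called higher numbered 6 with no minimum fold and 2 at 1.5-fold. Pathway genes lower numbered 12 under normexp. At 2-fold, 5 of the 97 tested pathway genes were lower and 5 higher, beside 484 and 387 of all 16821 tested genes. Those lower at 2-fold include FGF1, FGF12 and FGF20, which were near background and entered the test through shCtrl only. Those higher include FLRT2, which entered through shXBP-1s only.

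Signs turned under normexp for FGF11 (-0.29), FGFR1 probe 2 (-0.74), FGFR2 (-0.10 and -0.37), SPRY4 probe 2 (-0.61), FGF13 (-0.0206), FLRT2 (-0.72) and PLCG1 (-0.41). Relative to the shifted median, FGF11 (0.13), FGFR2 (0.31 and 0.05), FGF13 (0.39) and PLCG1 (0.0037) kept their sign, whereas FGFR1 probe 2 (-0.32), SPRY4 probe 2 (-0.19) and FLRT2 (-0.31) did not. They turned for FGFR1 probe 2 without shCtrl replicate 1 (-0.0147; 0.31 as the highest value with an array left out) and for SPRY4 probe 1 with the slide as a block (0.0049). FGFR4, near 0, turned with the deposited log2 values (0.0046), normexp and quantile normalization (0.0106), quantile normalization (0.0093), the slide block (0.0895), without shCtrl replicate 2 (0.0417) and without shXBP-1s replicate 3 (0.11), with -0.0612 as the lowest value with an array left out. The cause was not tested.

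The replicate numbers did not pair the samples: deviations of same-numbered arrays correlated at -0.02, 0.12 and -0.12, and not every array correlated best with its own number. With the replicate block, 1381 probes were called, and the FGF axis counts stayed at 3 lower and 1 higher. FGFR3 probe 2 then had an adjusted p of 0.0663 from limma.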
